A study of Mus musculus with 48 samples.

Results

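The clustered protocadherins are cell surface proteins of neurons encoded in 3 neighbouring gene clusters, alpha, beta and gamma. Their expression was followed in the hippocampus of female mice. Members were the protein-coding genes of the deposited count table whose names begin with Pcdha, Pcdhb or Pcdhg. This gave 58 members of 48440 genes, with 14 in the alpha, 22 in the beta and 22 in the gamma cluster. All 58 passed the filter on low counts of at least 5 reads in at least 3 libraries, as did 31208 genes of the table. RNA sequencing of the hippocampus gave 48 libraries, each from 1 female C57BL/6 mouse of 3 months in which both hippocampi had been merged. Wild-type dams were mated with males carrying 1 copy of the targeted allele of the serotonin transporter gene (5-Htt, Slc6a4), and offspring were labelled 5-Htt+/+ or 5-Htt+/-. Control dams (C) were left undisturbed, and stressed dams were restrained in 3 sessions per day from embryonic day 13 to 17. The study divided the prenatally stressed (PS) offspring by their time in the social chamber of the three-chamber test into animals affected (SA) and unaffected (SU) in social behaviour. The 5-Htt+/+ groups held 8 C, 8 SA and 8 SU libraries and the 5-Htt+/- groups 7, 8 and 9. SA and SU animals differ in behaviour that was measured after the stress and not assigned, and the litter is not in the labels, so that p-values measure the spread between animals with no term for litter.

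Each neuron chooses a small set of clustered protocadherin promoters, and the proteins bind the same combination on other cells, which lets a neuron tell its own branches from those of others. In the alpha and gamma clusters each variable first exon carries a whole extracellular domain and is spliced to constant exons at the end of the cluster, whereas the beta genes are single-exon genes with no constant exons. The alpha proteins, and Pcdhac2 in particular, are known for spacing and guiding serotonergic axons, and the C-type members (Pcdhac1, Pcdhac2, Pcdhgc3, Pcdhgc4 and Pcdhgc5) are not part of the stochastic choice in the way the others are.

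Library totals ranged from 16488405 to 38213754 counted reads, with a median of 24125647. Slc6a4 went against the direction that loss of a copy would give. Levels are given in CPM, which are counts scaled to the library total times its upper quartile factor. Slc6a4 lay between 0 and 0.262 CPM in the libraries labelled 5-Htt+/+ and between 12.8 and 17.0 CPM in those labelled 5-Htt+/-. Genotypes are therefore given below as labels. Summed levels of 12 hippocampal neuron markers were 1063 to 1402 CPM over all libraries. Of the serotonergic neuron markers, whose cell bodies lie outside the hippocampus, Fev was at 0 in 24 libraries and failed the filter. Tph2, which makes serotonin in neurons, averaged 1.38 CPM, Slc22a3 0.948 CPM and Gata3 0.137 CPM. Means were higher for other markers of the list, Gch1 (34.2 CPM), Htr1a (32.7 CPM), Slc18a2 (6.24 CPM) and Ddc (4.26 CPM). In whole tissue, fewer cells of a type and less RNA per cell cannot be told apart.

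The clusters lie on chromosome 18 of GRCm38, on the plus strand, alpha at 36930184 to 37187661, beta at 37264938 to 37524479 and gamma at 37661793 to 37841873. The deposited count of an alpha or gamma member was not the count of that member alone. Its annotated span runs from its variable exon through every member downstream to the shared constant exons, and counts followed the span. Among pairs of genes on the same strand of which one lies inside the other, anywhere in the table and with at least 480 reads in all for the inner gene, the outer count was at least the inner count in all 48 libraries for 2883 of 2885 pairs. On opposite strands this held for 2567 of 2736 pairs. The mean count fell from 4190 reads for Pcdha1, the first alpha member, to 2817 for Pcdhac2, the last, and from 12250 for Pcdhga1 to 7289 for Pcdhgc5. The step between neighbours covers the stretch from the start of 1 member to that of the next. It is here called the member's own segment (its count minus that of the next member downstream). Because counts followed the span, a segment takes in introns as well as exons. It may hold intron reads of transcripts begun upstream, so it is not strictly the reads of 1 member. Own segments made up 1.74% of the count of Pcdha1 and 0.801% of that of Pcdhgb4. The deposited counts of a cluster's members are thus largely the same reads counted repeatedly, and their number is no measure of how many members changed. The last member of the alpha and of the gamma cluster could not be separated from the shared exons. The beta genes have exons of their own, except for an overlap of 455 bases between Pcdhb21 and Pcdhb22.

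**Figure D1:**
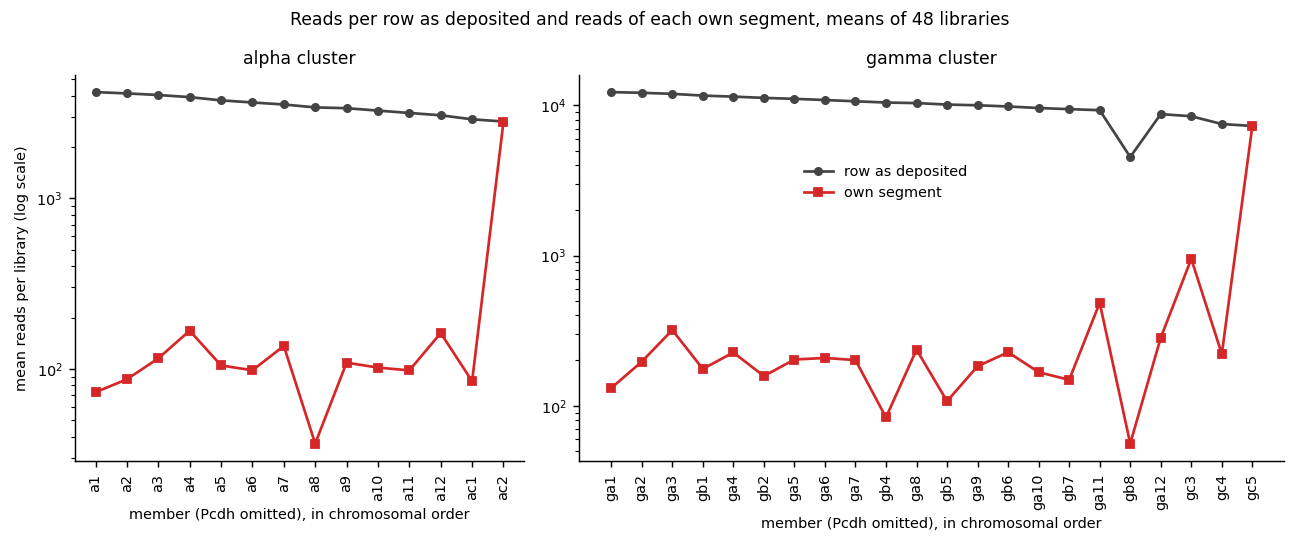
Mean reads per library (48 libraries, log axis) of each alpha and gamma member in chromosomal order, as deposited (dark circles) and for the own segment (red squares). The deposited count falls stepwise from 4190 to 2817 reads along alpha and from 12250 to 7289 along gamma, with a dip at the shorter Pcdhgb8 entry (4529), whereas own segments stay under 1000 reads except for Pcdhac2 and Pcdhgc5, which carry the shared exons.

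Further annotated genes share these reads. The Pcdhgb8 entry among the members ends inside the last exon and held 4529 reads, whereas a second Pcdhgb8 entry, annotated as a polymorphic pseudogene and no member, spans that exon and held 8799. The own segment of Pcdhgb8 was taken from the longer entry. The deposited table names the alpha entry at 37005203 Pcdha11 and the gamma entry at 37815079 Pcdhga8, as it does another entry each. They were renamed Pcdha10 and Pcdhgc4 by their place. Gm42416, Gm37013 and Gm37388, which span from alpha to the end of gamma, held 15980, 14620 and 14520 reads. Minus-strand genes inside the clusters also held reads, among them 307 for Gm37165, 1011 for Gm26672 and 528 for BC037039. Whether counting used strand is not stated. Nesting failed for more of the opposite-strand than of the same-strand pairs, as given above. How far antisense reads enter these counts was not tested, and sense and antisense reads were not told apart.

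The 3 clusters together took 0.0722% to 0.0894% of a library's reads, with a median of 0.0787%. Levels of single members are given from here on as own-segment CPM per kb of own exon over all 48 libraries, mean ± SD. Reads in the introns of a segment are included, whereas the length holds exon bases alone. Members with long introns may therefore read high. In alpha, Pcdhac2 with the shared exons stood at 19.4 ± 1.17 CPM per kb. Among the members that could be separated, Pcdha12 (2.65 ± 0.330), Pcdha4 (2.34 ± 0.236) and Pcdha7 (2.23 ± 0.398) were highest. These 3 differed by less than their summed SDs. The own segment of Pcdha7 (136 reads) also spans the same-strand pseudogene Gm36858 (41.9 reads), and that of Pcdha12 (162 reads) spans Gm19035 (10.5 reads). The levels and ranks of Pcdha7 and Pcdha12 may include those reads. Their segments also take in long introns. That of Pcdha12 runs from 37020149 to 37090012 with 2475 exon bases, and that of Pcdha7 from 36973802 to 36992370 with 2477. Pcdha1 (1.19 ± 0.220) and Pcdha8 (0.602 ± 0.135) were lowest. Pcdhac1, the other C-type alpha member, was among the lower ones at 1.35 ± 0.194.

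Among the beta members, Pcdhb9 was highest at 3.78 ± 0.358 CPM per kb, followed by Pcdhb17 at 2.58 ± 0.234 and Pcdhb7 at 2.40 ± 0.275. Pcdhb7, Pcdhb12 (2.39 ± 0.258) and Pcdhb20 (2.33 ± 0.226) lay within 1 SD of each other. Pcdhb21 stood at 0.655 ± 0.128. Pcdhb1, at the start of the cluster, was nearly silent at 0.0637 ± 0.038 CPM per kb, with 0 to 17 reads per library and a mean of 4.15.

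In gamma, Pcdhgc5 with the shared exons reached 38.6 ± 3.62 CPM per kb. Its entry (7289 reads) also spans the same-strand processed transcript Gm38182 (2001 reads), whose reads it may include. The C-type member Pcdhgc3 was the highest of the separable members at 11.3 ± 1.38, above Pcdhga11 at 7.41 ± 0.761 and Pcdhga3 at 4.94 ± 0.664. The minus-strand gene BC037039 (528.5 reads) overlaps the Pcdhgc3 segment (949.7 reads), so the level of Pcdhgc3 may include antisense reads. The minus-strand gene Gm26672 (1011 reads) spans the segments of Pcdhga11 (484.2 reads) and Pcdhgb8 (55.96 reads), whose levels carry the same limit. Pcdhgc4, the third C-type gamma member, ranked only 14 of 22 at 2.57 ± 0.299. Lowest were the B-type members Pcdhgb5 (0.940 ± 0.134) and Pcdhgb8 (0.903 ± 0.117), which did not differ beyond their SDs. Within a cluster, only the C-type members Pcdhgc3 and Pcdhgc4 could be compared without the shared exons, and they differed in level as counted.

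**Figure D2:**
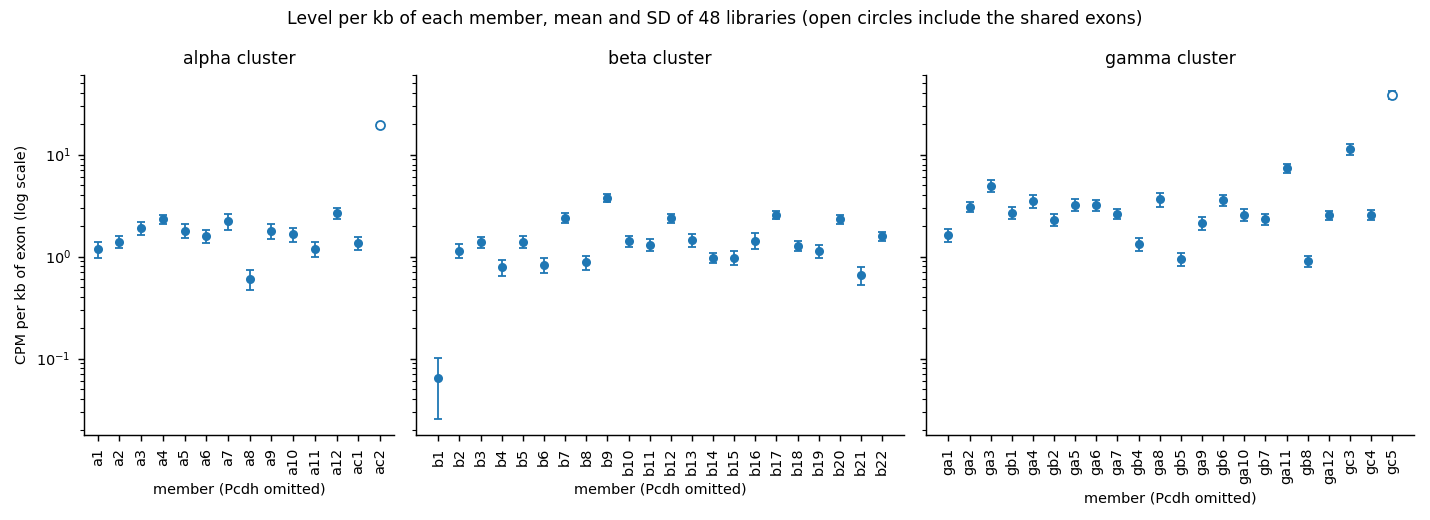
Level of each member in CPM per kb of exon (log axis) by cluster, with mean and SD of 48 libraries, in which alpha and gamma members are own segments and open circles include the shared exons. Pcdhac2 (19.4) and Pcdhgc5 (38.6) stand above their clusters, and Pcdhb1 lies below all others at 0.0637. Reads counted in introns are included, whereas intron bases are not.

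The Pcdhac2 entry held 54.1% to 71.6% of all alpha reads, with a median of 67.7%, and the Pcdhgc5 entry 57.5% to 61.3% of all gamma reads, with a median of 59.3%. The alpha share was lowest, at 54.1%, in 5-Htt+/- C library 3, whose group's median was 66.7%. Spread between libraries exceeded counting error in every member except Pcdhgb8 (12.9% against 13.4%). The coefficient of variation of Pcdha9 was 16.8%, where counting alone would give 9.59%, and that of the Pcdhac2 entry was 6.02% against 1.88%. For Pcdhb1 the values were 59.7% and 49.1%, so that counting made up most of its spread.

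Members of a cluster varied together to a degree that depended on the unit. Over the 48 libraries, with counts as log2(CPM + 0.1), the median Pearson r between deposited counts was 0.950 within alpha and 0.997 within gamma, where the same reads are shared. With own segments it was 0.377 over 78 alpha pairs (-0.260 to 0.738) and 0.277 over 210 gamma pairs (-0.162 to 0.716), and within beta it was 0.167 over 231 pairs (-0.321 to 0.665). Between clusters the medians were -0.005 for alpha with beta, 0.182 for alpha with gamma and -0.068 for beta with gamma. The most alike pairs were Pcdha9 and Pcdha11 (0.738), Pcdhgc3 and Pcdhgc4 (0.716) and Pcdhb19 and Pcdhb21 (0.665). These values are descriptive. The points share libraries and depth, and the groups were not removed.

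Every member was then compared between groups, which asks whether prenatal stress, its social outcome or the genotype label went with a different protocadherin expression. Counts were tested with edgeR's quasi-likelihood test over all 31208 genes and the Benjamini-Hochberg adjustment, in 11 contrasts. At an adjusted p under 0.05, 0 of 58 members were called in any contrast, with the deposited counts or with the own segments. DESeq2 called 0 members with the deposited counts and 1 with the own segments, Pcdha9 between SU and C offspring of the 5-Htt+/- label, described below. Over all genes, the percent called at that threshold was 0.0256% for SA and 0.0160% for SU against C in 5-Htt+/-, 0.00% and 0.00320% in 5-Htt+/+, 0.0385% for PS over both genotypes and 0.0224% for the genotype label, so that the threshold left few genes anywhere. With own segments in the table the share was 0.0288% for SA in 5-Htt+/- and otherwise the same. In the contrasts not named here it was 0.00%. Counts of members at an unadjusted p under 0.05 are given beside the same share of all genes.

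In the 5-Htt+/+ label, the clusters differed little between C, SA and SU offspring. Mean alpha levels, read from the Pcdha1 count, which covers the cluster, were 173 ± 7.48, 166 ± 5.68 and 172 ± 9.37 CPM in C, SA and SU. The beta sum was 132 ± 9.66, 133 ± 9.38 and 134 ± 5.50 CPM, and gamma, read from the Pcdhga1 count, was 500 ± 62.3, 491 ± 38.3 and 489 ± 24.2 CPM. All these ranges overlapped. At an unadjusted p under 0.05, 1 of 58 members was higher in SA than in C with deposited counts, against 2.52% of all genes, and 0 members differed between SU and C (2.96% of genes) or SA and SU (3.49%). With own segments the numbers were 3 lower and 1 higher, 1 lower, and 1 lower (2.52%, 2.98% and 3.50% of genes).

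Pcdhb8, a beta gene of modest level, was the deposited count behind that call. Its CPM ran from 2.36 over a median of 2.72 to 2.95 in C, from 2.88 over 3.07 to 3.96 in SA, and from 2.60 over 3.16 to 3.77 in SU. The SA libraries lay mostly above the C libraries, with an overlap at the edge. The log2 fold change was 0.24 (SE 0.11) for SA (adjusted p = 1) and 0.21 (SE 0.11) for SU (adjusted p = 1) in edgeR's quasi-likelihood test. Among own segments, Pcdhga10, an A-type gamma member, was -0.21 and Pcdhac1 -0.22 in SA, and Pcdhgc4 -0.18 in SU, all with an adjusted p of 1 in the same test. The deposited counts of smallest p also took in the alpha members Pcdha2 (-0.06 in SA) and Pcdha5 (-0.06 between SA and SU) and the beta genes Pcdhb5 (-0.15 in SU) and Pcdhb10 (0.13 in SU), each with an adjusted p of 1. Pcdha12, the highest separable alpha member as counted per kb of exon, was -0.18 between SA and SU (adjusted p = 0.9999).

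**Figure D3:**
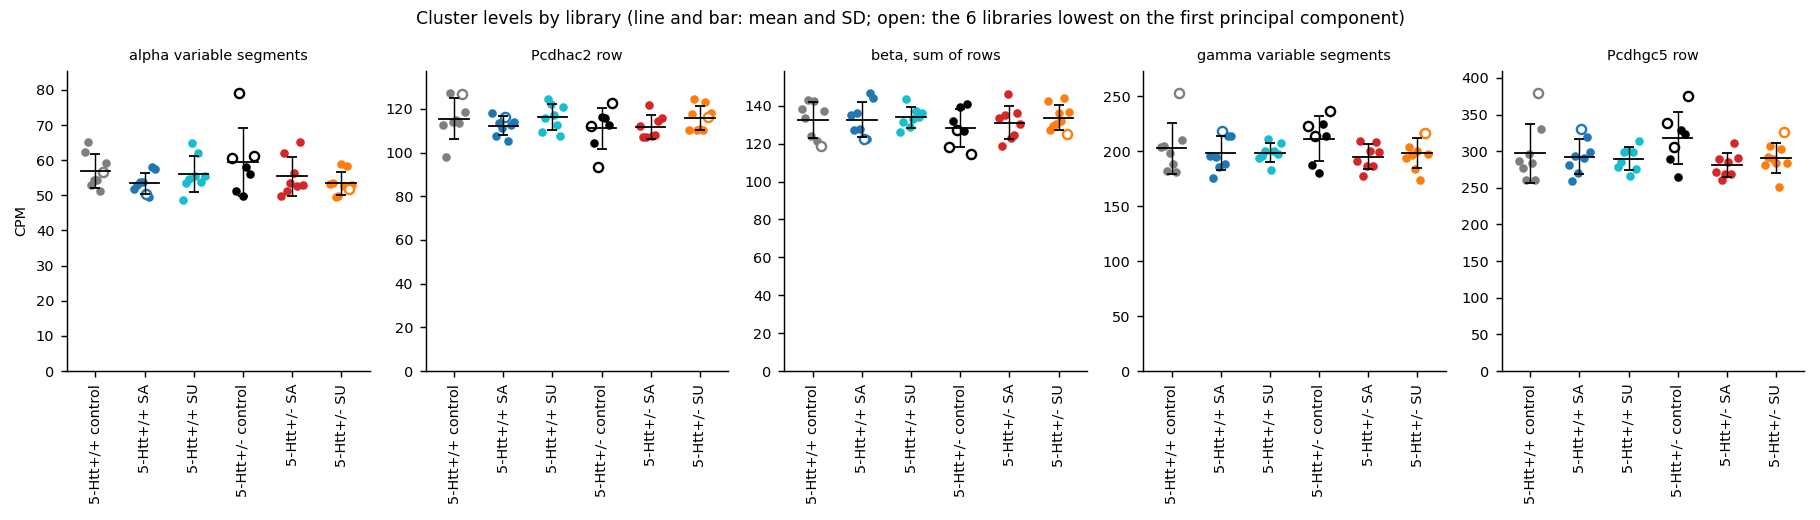
CPM in each library by group for the summed alpha variable segments, the Pcdhac2 count, the beta sum, the summed gamma variable segments and the Pcdhgc5 count, with a line and bar for the group mean and SD and open circles for the 6 libraries lowest on the first principal component. Ranges overlap between all groups in every panel, and the highest Pcdhgc5 points are open circles, 380 CPM in 5-Htt+/+ C and 375 CPM in 5-Htt+/- C.

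In the 5-Htt+/- label, gamma counts had lower medians in both stressed groups than in C, with no member past the adjusted threshold. Both contrasts use the same C libraries. The Pcdhga1 count ran from 445 over a median of 538 to 612 CPM in C, from 438 over 475 to 519 in SA, and from 425 over 484 to 543 in SU. The C libraries reached higher, but their lowest lay inside the range of both other groups. All 22 gamma members were lower in SA at an unadjusted p under 0.05, with a median log2 fold change of -0.17 (all genes -0.01), against 6.68% of all genes lower at that threshold. In SU 17 gamma members were lower, with a median of -0.13 (all genes 0.00), against 8.30% of genes. These 22 and 17 members share most of their reads. With own segments, 3 gamma members were lower in each contrast (6.80% and 8.25% of genes lower), and the medians were -0.12 in SA and -0.10 in SU.

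Pcdhgc5, with the shared gamma exons, had the smallest p of the deposited counts in SA. It ran from 265 over 324 to 375 CPM in C, from 260 over 279 to 310 in SA, and from 251 over 289 to 326 in SU, so that all 3 groups overlapped. Its log2 fold change was -0.18 (SE 0.06, adjusted p = 0.358) in SA by edgeR's quasi-likelihood test. Pcdhgc4 (-0.18, adjusted p = 0.360) and Pcdhga7 (-0.17, adjusted p = 0.371) followed, and in SU Pcdhgb8 stood at -0.17 (adjusted p = 0.261). Among own segments, Pcdhga11, the highest A-type member as counted, was -0.17 in SA (adjusted p = 0.407). Pcdhgb4, a B-type member, ran from 3.06 over 3.71 to 4.85 CPM in C and from 2.25 over 3.19 to 3.73 in SU, a log2 fold change of -0.29 (SE 0.10, adjusted p = 0.177). Pcdhgb4 levels in SA, 3.22 to 3.93 CPM, lay within those of C. The difference between SA and SU was 0.21 (adjusted p = 0.9999).

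For the alpha cluster, most of whose reads lie in the Pcdhac2 entry with the shared exons, deposited counts and own segments gave different medians. With deposited counts the median log2 fold changes were -0.02 in SA and 0.02 in SU, and with own segments -0.09 and -0.16, below 0 as for gamma. The Pcdha1 count averaged 171 ± 8.72, 167 ± 7.46 and 169 ± 6.43 CPM in C, SA and SU of the 5-Htt+/- label, and 0 of 14 alpha members had an unadjusted p under 0.05 with deposited counts in either contrast. The entry of Pcdhac2, the member known for serotonergic axons, also holds the exons shared by all alpha members, so Pcdhac2 alone was not measured. This entry ran from 93.4 over 113 to 123 CPM in C, from 107 over 110 to 122 in SA and from 110 over 116 to 125 in SU. Its groups overlapped throughout, as they did in the 5-Htt+/+ label, where all libraries lay between 97.8 and 127 CPM. The variable alpha segments without Pcdhac2, summed, averaged 59.5 ± 9.71 CPM in C, 55.4 ± 5.44 in SA and 53.4 ± 3.25 in SU.

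Pcdha9 gave the largest alpha difference in its own segment. Its CPM ran from 4.12 over 4.87 to 6.53 in C, from 2.88 over 4.15 to 4.83 in SA and from 3.02 over 4.08 to 4.81 in SU. More C libraries were high, but the 3 groups overlapped between 4.12 and 4.81 CPM. In the 5-Htt+/+ label the C, SA and SU medians were 4.51, 4.38 and 4.50 CPM. The log2 fold change was -0.36 (SE 0.11, adjusted p = 0.293) in SA and -0.37 (SE 0.11, adjusted p = 0.151) in SU by edgeR's quasi-likelihood test. DESeq2 gave an adjusted p of 0.0458 for SU, the single adjusted p under 0.05 that any alternative gave a member, while its adjusted p reached 0.758 over the others. Without the 6 libraries described below, the log2 fold change of Pcdha9 in SU was -0.24 (adjusted p = 0.758). Pcdha1 was -0.32 in SU (adjusted p = 0.232) and -0.04 without those libraries. Alpha own segments with an unadjusted p under 0.05 numbered 1 in SA and 3 in SU, all lower.

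Beta medians were above 0 in the 5-Htt+/- label, with no member called. They were 0.05 in SA and 0.07 in SU, and 1 and 2 members were higher at an unadjusted p under 0.05, against 4.76% and 6.42% of all genes (4.63% and 6.42% with own segments in the table). Pcdhb7 ran from 7.09 over 8.21 to 8.61 CPM in C and from 6.89 over 9.48 to 9.88 in SU. All SU libraries but 1 lay above the C libraries, and that 1 lay below them. Its log2 fold change was 0.21 (SE 0.08, adjusted p = 0.232), and that of Pcdhb17 in SU 0.16 (SE 0.07, adjusted p = 0.272), both by edgeR's quasi-likelihood test. SA and SU did not differ in any deposited member at an unadjusted p under 0.05 (3.25% of genes). With own segments 1 was lower (Pcdhgb2, -0.23) and 2 were higher (Pcdhgb4 and Pcdha1), each with an adjusted p of 0.9999, against 3.29% of genes.

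**Figure D4:**
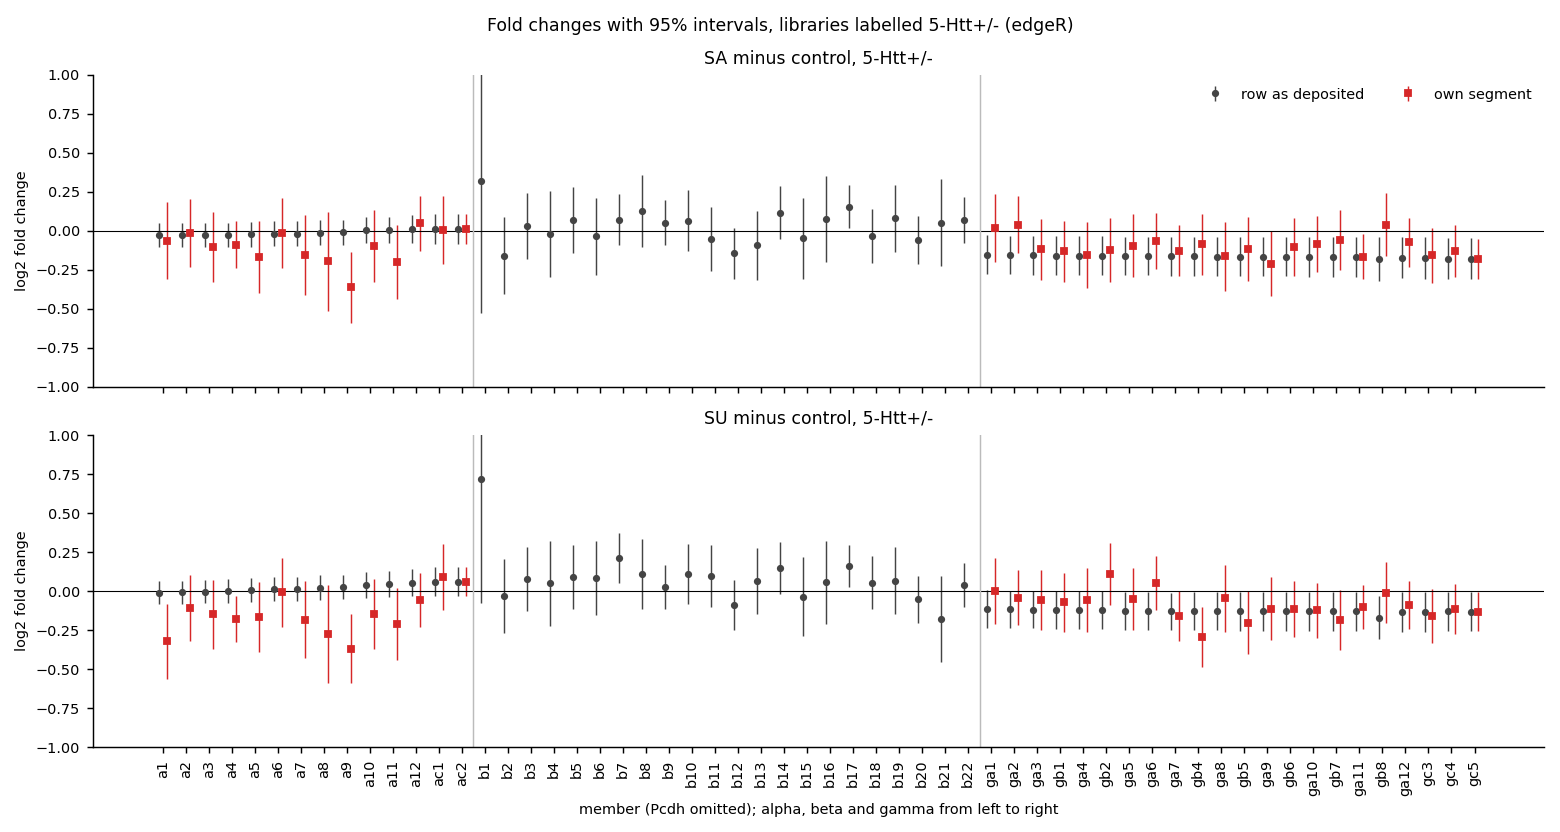
Log2 fold change of each member with its 95% interval for SA (top) and SU (bottom) against C in the 5-Htt+/- label, for deposited counts (dark circles) and own segments (red squares), on an axis that ends at -1 and 1 and cuts the interval of Pcdhb1. Deposited gamma counts sit together below 0, with medians of -0.17 and -0.13, whereas own segments scatter more widely and reach -0.36 and -0.37 for Pcdha9.

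Over both genotype labels, PS offspring against C gave a median of -0.09 for gamma, with 22 of 22 members lower at an unadjusted p under 0.05 (7.32% of genes), and 3 beta members higher (4.93%). The smallest adjusted p of a deposited member count was 0.350. Pcdhb8 was higher by 0.17 (adjusted p = 0.353) and Pcdhgc4 lower in its own segment, -0.13 (adjusted p = 0.336). None of the tests of the difference between genotype labels called a member. In the three-way contrast, the SA and SU difference in 5-Htt+/+ minus that in 5-Htt+/-, Pcdhb21 stood at -0.44, Pcdhb13 at 0.30 and Pcdhb6 at 0.24, with an adjusted p of 0.9999 each and 3.38% of genes under 0.05. The gamma median was -0.14 in the SA by genotype contrast and -0.09 in the SU by genotype contrast, with 0 members under 0.05 in either (4.60% and 5.17% of genes), so that the gamma differences of the 5-Htt+/- label were not shown to differ from those of the 5-Htt+/+ label. With own segments, the members under 0.05 were 3 lower and 1 higher in the three-way contrast (3.40% of genes), 1 and 3 lower in the SA and SU by genotype contrasts (4.65% and 5.17%), 0 for the genotype label (4.48%), and 9 lower and 3 higher for PS (7.31% and 4.93%). In the SU by genotype contrast Pcdhb5 stood at 0.24 (adjusted p = 0.982) and the own segment of Pcdhgb7, a B-type gamma member, at -0.30 (adjusted p = 0.962). The genotype label itself gave 0 members under 0.05 (4.49% of genes). Its smallest p was that of Pcdhb9, -0.07 (adjusted p = 0.956), the highest beta gene, and Pcdhb16 was among the next at -0.11 (adjusted p = 0.956).

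The number of gamma members at an unadjusted p under 0.05 depended on which libraries were kept. The first principal component of log2 CPM over all genes held 7.63% of the variance, and its low end was taken by 6 libraries, 5-Htt+/+ C 7, 5-Htt+/- C 1, 3 and 7, 5-Htt+/- SU 8 and 5-Htt+/+ SA 5. Over the 48 libraries the gamma level went with this component at Pearson's r = -0.839 (Spearman's rho -0.812, and r = -0.826 without the 2 libraries farthest from the median). The alpha variable segments gave r = -0.574 (rho -0.554), the beta sum 0.551 (rho 0.424) and the Pcdhac2 entry with the shared exons 0.084 (rho -0.009). The component is computed from all genes, members included, and r is descriptive. Without the 6 libraries, 0 gamma members had an unadjusted p under 0.05 in SA, SU or PS, and the medians were -0.09, -0.08 and -0.03. With the component as a covariate they were -0.06, -0.03 and -0.02, again with 0 members. The gamma level went with this component, and the 6 libraries include 5-Htt+/- C 1, 3 and 7. Both steps would thus tend to shrink the differences and cannot show where they come from. With deposited counts, which share most of their reads, leaving out 1 library sufficed in 2 contrasts. Without 5-Htt+/- C 7 the gamma members with an unadjusted p under 0.05 numbered 7 in SA and 0 in SU, and without 5-Htt+/+ C 7 they numbered 0 for PS. With own segments, leaving out any 1 library left at least 1 of 22 gamma members lower in SA, 1 in SU and 2 for PS. With all libraries, 6.80%, 8.25% and 7.31% of all genes were lower at that threshold. Counts this small lie near the share of all genes. The beta medians turned negative without the 6 libraries, -0.07 in SA and -0.02 in SU. The higher Pcdhb8 of PS offspring did not weaken, at 0.29 (adjusted p = 0.162). In these 6 libraries the mean log2 CPM of 13 CTCF and cohesin genes was 5.33 to 5.71, below the 5.87 to 6.23 of the other libraries, and that of 12 non-clustered protocadherins was 4.89 to 5.09, below 5.13 to 5.44. Both lists are among the genes from which the component was computed. The libraries were chosen after seeing the data, and the part of these genes in the protocadherin levels was not tested.

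**Figure D5:**
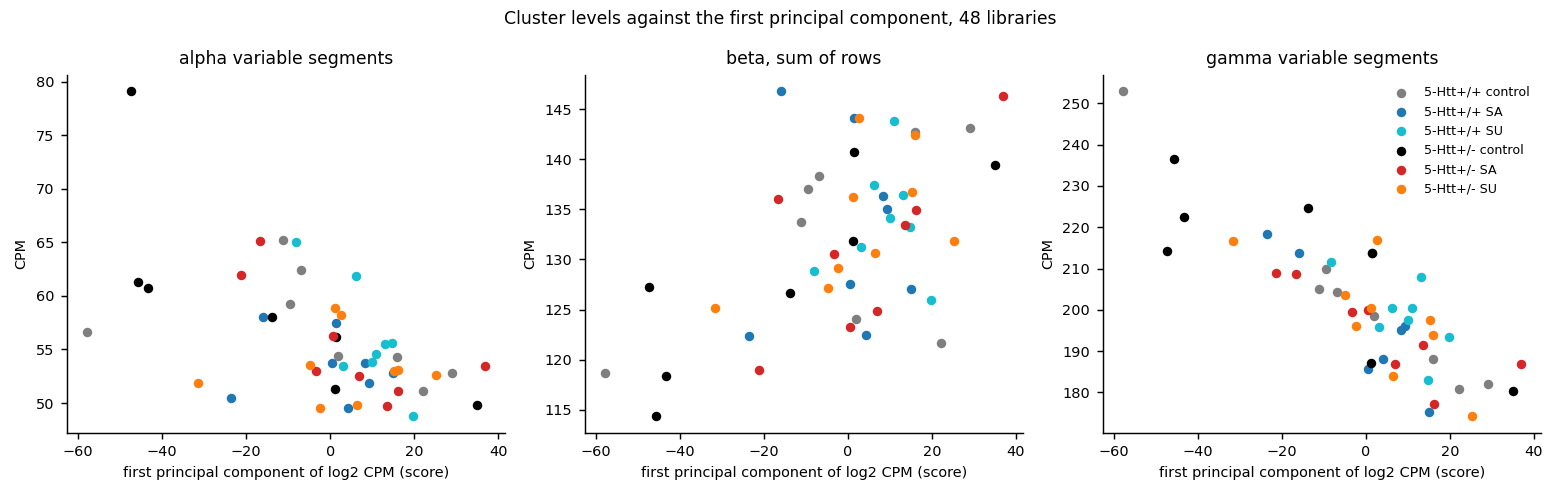
CPM of the summed alpha variable segments, the beta sum and the summed gamma variable segments against the score on the first principal component of log2 CPM over all genes, 1 point per library, coloured by group. Gamma falls along the component (r = -0.835), alpha falls less steadily (r = -0.574) and beta rises (r = 0.551).

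Other measures moved with the same groups. Summed oligodendrocyte marker CPM ran from 2460 to 4228 (median 3103) in C of the 5-Htt+/- label, from 2147 to 3205 in SA and from 2176 to 2750 in SU. Of 10 markers, 6 in SA and 7 in SU were lower at an unadjusted p under 0.05, against 6.68% and 8.30% of all genes, Mag with -0.53 in SU (adjusted p = 0.0602 by edgeR's quasi-likelihood test). None of the 10 was called. Of 10 astrocyte markers 4 and 3 were lower, and of 10 microglia markers 3 and 1. The mitochondrial share of reads had a median of 4.46% in that C group and of 5.04% to 5.37% in the other groups. The choroid plexus marker sum had medians of 52.5, 45.6 and 294 CPM in C, SA and SU of the 5-Htt+/- label and of 51.6, 425 and 37.5 CPM in the 5-Htt+/+ label, with libraries from 29.7 to 969 CPM. All 12 of its markers had log2 fold changes above 0 in SA and SU of the 5-Htt+/- label (medians 0.57 and 0.98). Of all 31208 genes, 14978 and 15416 did. At an unadjusted p under 0.05, 0 of the 12 differed. With the choroid plexus score as a covariate the gamma medians were -0.16 in SA and -0.11 in SU, with 22 and 1 members under 0.05. The part of the other measures in the gamma differences was not tested.

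Genes that act on the clusters or with their proteins were taken from lists. Beside each count at an unadjusted p under 0.05 in the 5-Htt+/- label stand 6.68% of all genes lower and 4.76% higher in SA, and 8.30% lower and 6.42% higher in SU. CTCF and cohesin, which fold promoters and enhancers of the clusters together, gave 0 called genes of 13 in any contrast. In 5-Htt+/-, 1 of 13 was higher in SA (Esco1, 0.35, adjusted p = 0.428) and 3 in SU (among them Smc1a, 0.13, adjusted p = 0.323) at an unadjusted p under 0.05. The fold change was above 0 for 12 of 13 in each, with medians of 0.17 and 0.16. Of all 31208 genes it was above 0 for 14978 in SA and 15416 in SU. The low level of this list in the 6 libraries named above, among them 5-Htt+/- C 1, 3 and 7, bears on these counts. Of 15 genes for DNA and histone methylation, which include the demethylation genes Tet1, Tet2 and Tet3, 1 was lower and 3 higher in SA, and 2 and 2 in SU. Smchd1, a repressor of the clusters, stood at 0.23 in SU (adjusted p = 0.235), and Dnmt1 at -0.09 for PS (adjusted p = 0.339). Of 21 cleavage and signalling partners, 1 was higher in SA, and in SU 1 was lower and 3 were higher. Adam10, which sheds protocadherin ectodomains, was 0.19 in SU (adjusted p = 0.140). The WAVE complex gene Nckap1 was 0.13 (adjusted p = 0.200). The 12 non-clustered protocadherins, which have their own loci, gave 1 and 2 higher members, among them Pcdh9 at 0.26 in SA (adjusted p = 0.408). Their medians of 0.10 and 0.07 had the sign of beta and not of gamma. Of 15 genes beside the clusters, 1 was lower and 1 higher in SA and 3 were lower in SU, and Hdac3 was -0.09 for PS (adjusted p = 0.323). Of the serotonergic list, Slc6a4 alone was called, for the genotype label (log2 fold change 6.72, adjusted p = 4.337e-48).

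Marker lists of other cell types and tissues bore on what the dissections held. No gene of these lists was called in any contrast, and the shares of all genes are those given for the other lists. For SA and SU in 5-Htt+/-, 12 hippocampal neuron markers gave 1 lower and 2 higher at an unadjusted p under 0.05, 10 endothelial markers 1 lower and 1 higher, and 10 interneuron markers 1 lower each. Of 10 thalamus markers 0 and 1 differed, of 12 choroid plexus markers 0 and 0, and of 8 olfactory and striatal markers 0 and 1. Of 8 pituitary markers 7 passed the filter, of which 3 differed in SA and 0 in SU, and their summed level reached 65.1 CPM in a 5-Htt+/+ SA library, where the group's median was 2.34 CPM. The part of these markers in the protocadherin levels was not tested.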

How the data were processed

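For 48 libraries of mouse hippocampus, the values the authors deposited were counts of reads per gene in whole numbers, without normalisation. Per the submitters' processing notes the build was GRCm38.p5 and the tools included STAR, HTSeq and DESeq2. The study's methods name Salmon and tximport for the gene counts. Which of these tools made the deposited table, their versions for it and the strand setting were not given in the sources used here. Every column of counts matched a label, and no pair of libraries of the same group looked like 1 library deposited more than once (smallest chi-square per degree of freedom 2.535).

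The main test was the quasi-likelihood test of edgeR 4.0.16 (R 4.3.3, limma 3.58.1), and DESeq2 1.42.0 was an alternative. A gene entered when 3 or more libraries held 5 or more of its reads. Scaling used upper quartile factors, each of the 6 groups had its own mean, and p-values were adjusted by Benjamini-Hochberg over 31208 genes (threshold 0.05). The steps were tested on simulated data. Contrasts were SA or SU against C and SA against SU within each genotype label, the differences of these between labels, the genotype label and prenatal stress. Own segments were computed after seeing that the counts nest, and were fitted in the same way in place of the alpha and gamma members. Own exon lengths came from GENCODE exons on GRCm38. Levels are CPM of the library total times its upper quartile factor.

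Named are the C-type members, the 3 highest and 2 lowest members per kb of each cluster, the 3 members of smallest p per contrast, Slc6a4 and up to 3 genes of smallest p per list. Others (Pcdhb12, Pcdhb20, Pcdhga3) were chosen after their values were seen. The members, the gene lists and the named rule were chosen with earlier results of these data known. Alternatives were other tests, scalings, filters and covariates, a replicate block, leaving out each library and, chosen after seeing the data, own segments and leaving out 6 libraries. Same-numbered libraries of different groups did not deviate together (115 pairs, median correlation -0.001, 6 over 0.1), so numbers did not pair animals. No sequence was used.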

Additional observations from a re-analysis of the deposited data

Results flagged for a closer look

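A library lay far from the others of its group, by the gap to its nearest neighbour over the range of the group, in 10 of 120 groups examined (20 quantities in 6 groups). Chance flags about 1 in 20 such groups. The quantities overlap, since cluster sums contain single members, and the same libraries recur, so that the 120 are not independent. Levels are CPM of own segments.

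In 5-Htt+/- C library 3 the alpha variable segments summed to 79.16 against 49.84 to 61.34 in the others, and Pcdha12 stood at 9.313 against 5.354 to 7.045. In 5-Htt+/+ C library 7 the gamma variable segments summed to 253.1 against 180.7 to 209.9. In 5-Htt+/- C library 7 Pcdhb9 was 13.04 against 10.28 to 11.32. In 5-Htt+/+ SA library 5 Pcdhgb5 was 5.218 against 3.466 to 4.271. These 4 libraries are among the 6 at the low end of the first principal component.

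Pcdhb7 was high in 5-Htt+/+ SU library 3, at 11.85 against 7.132 to 9.11, and low in 5-Htt+/- SU library 8, at 6.892 against 8.621 to 9.882, which is also among the 6. In 5-Htt+/- SU, Pcdha8 was 2.026 in library 6 against 1.1 to 1.508, Pcdhb21 was 3.862 in library 7 against 2.167 to 3.018, and Pcdhb1 was 0.6084 in library 1 against 0.09422 to 0.278. Pcdhb1 rests on few reads.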

How the results depend on the processing

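The yardstick for cluster medians was the SD of libraries within their groups, 0.12 for deposited gamma counts. The gamma median for prenatal stress, -0.09, lay inside that SD, so it could be lost without counting as moved. Gamma medians moved toward 0 without the 6 libraries and with the first component as a covariate, as given above. Cluster medians moved by less than this SD under the other tests, scalings, filters, fits and covariates. Counts of called members stayed at 0. The exceptions follow. Beta medians of 5-Htt+/- turned negative without the 6 libraries, -0.07 in SA and -0.02 in SU. With own segments in place of deposited counts the alpha medians moved, from -0.02 to -0.0939 for SA and from 0.02 to -0.1585 for SU against C in 5-Htt+/-, from 0.01 to -0.1255 for genotype by SU and from -0.01 to -0.0836 for prenatal stress. The construction of own segments removes the reads shared with members downstream. With DESeq2 on own segments 1 member was called between SU and C in 5-Htt+/- (0 otherwise). Leaving out each library in turn called 0 members in every contrast. With the replicate block no member was called, and the gamma members under an unadjusted p of 0.05 numbered 22 for SA, 22 for SU (17 without it) and 22 for prenatal stress. For SU that number was 1 with no filter on low counts, 1 with the choroid plexus covariate and 5 with only the groups compared. Depth limits Pcdhb1 (0 to 17 reads) and the own segments of Pcdha8 (21 to 63 reads). A change in them was not detectable at this depth unless large.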
